A study of Camelina sativa with 41 samples.

Results

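Csa02g060070 and Csa18g003140 are 2 of the 22 transcription factors whose DNA binding was assayed in Camelina sativa, a mustard-family oilseed crop, and 2 of the 89418 genes in the seed count table. They were chosen because their messenger RNA rose between 5 and 8 days post-anthesis (DPA, counted from flower opening) and changed little between 8 and 11 DPA. That course was the rule of choice, so it is described here with no test. Messenger RNA was sequenced from untransformed (WT) plants of the cultivar Suneson at 5, 8 and 11 DPA. Every age was sampled 3 times, as biological replicates per the labels, and the runs of a replicate were summed. The labels call the tissue seeds, while the growth notes speak of harvested seedpods. Binding was assayed by DAP-seq, in which a Halo-tagged factor made outside the plant captures fragments of genomic DNA that are then sequenced, on leaf DNA of the same cultivar, amplified so that it carried no methylation.

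Transcription factors bind short DNA motifs near genes and raise or lower their transcription. As general background, a young oilseed passes from cell division and patterning to filling, when embryo cells store oil and protein, and transcription factors are turned on in sequence along the way. The series title names the regulation of lipid metabolism. Genes are listed by ID only, and 0 of its 89418 IDs matched an entry among the 98741 genes of the RefSeq table, so neither factor is given a name, a family or a target here, and no tissue marker could be checked by name. In the table both genes lie on the minus strand, Csa02g060070 with a length of 2190 bases and Csa18g003140 with 5497 bases. Their IDs place them on chromosomes 2 and 18.

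Library totals ran from 15659011 to 46863553 counts, and the lowest was that of 5 DPA replicate 1, for which a single run was used. Its resequenced column equals that of replicate 2 in 89418 of 89418 genes and was counted once, with replicate 2. Both genes passed the filter on low counts. Whole tissue was sequenced, so a change in the number of cells that express a gene and a change in RNA per cell cannot be told apart.

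Csa02g060070 was scarce at 5 DPA, about 10-fold more abundant at 8 DPA, and held that level at 11 DPA. At 5 DPA it had 0.830, 1.02 and 1.13 CPM (counts scaled to 1000000 per library) in replicates 1, 2 and 3, from 13, 40 and 50 counts. At 8 DPA it had 9.54, 8.79 and 12.02 CPM. At 11 DPA it had 8.92, 10.3 and 8.98 CPM. The 3 libraries of 5 DPA lay apart from the rest, and those of 8 and 11 DPA overlapped, with the highest and the lowest of these 6 values both at 8 DPA. The means of the ages, in that order, were 0.994 CPM ± 0.153, 10.1 CPM ± 1.69 and 9.41 CPM ± 0.795 (SD over 3 replicates). The ratio of the 8 DPA mean to the 5 DPA mean was 10.2, and even the lowest library of 8 DPA was 7.75 times the highest of 5 DPA. The ratio of 11 to 8 DPA was 0.930.

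Csa18g003140 took the same course at a higher CPM. At 5 DPA it had 2.17, 1.78 and 4.99 CPM in replicates 1, 2 and 3, from 34, 70 and 220 counts. At 8 DPA it had 25.4, 27.0 and 26.5 CPM. At 11 DPA it had 22.7, 21.9 and 24.7 CPM. Replicate 3 stood above the other 5 DPA libraries, and its counting interval (95% exact Poisson, 4.35 to 5.69 CPM) did not reach theirs, the higher of which ended at 3.03 CPM. The means were 2.98 CPM ± 1.75, 26.3 CPM ± 0.827 and 23.1 CPM ± 1.41 at 5, 8 and 11 DPA (SD, n = 3 each). The ratio of the 8 DPA mean to the 5 DPA mean was 8.83, or 13.3 without 5 DPA replicate 3, and the lowest library of 8 DPA was 5.10 times the highest of 5 DPA.

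After 8 DPA the libraries of Csa18g003140 did not overlap: those of 11 DPA all lay below those of 8 DPA, with a ratio of the means of 0.877. This gap depended on scaling. With trimmed mean scaling (TMM, which corrects for a few abundant genes taking a larger share of a library), the lowest value at 8 DPA was 24.700 CPM and the highest at 11 DPA 24.675 CPM. In the fit of all ages the second step (8 to 11 DPA) had a log2 change of -0.11, SE 0.26, and when only these ages entered the fit one of -0.13, SE 0.07. For Csa02g060070 the second step was -0.03, SE 0.13.

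**Figure D1:**
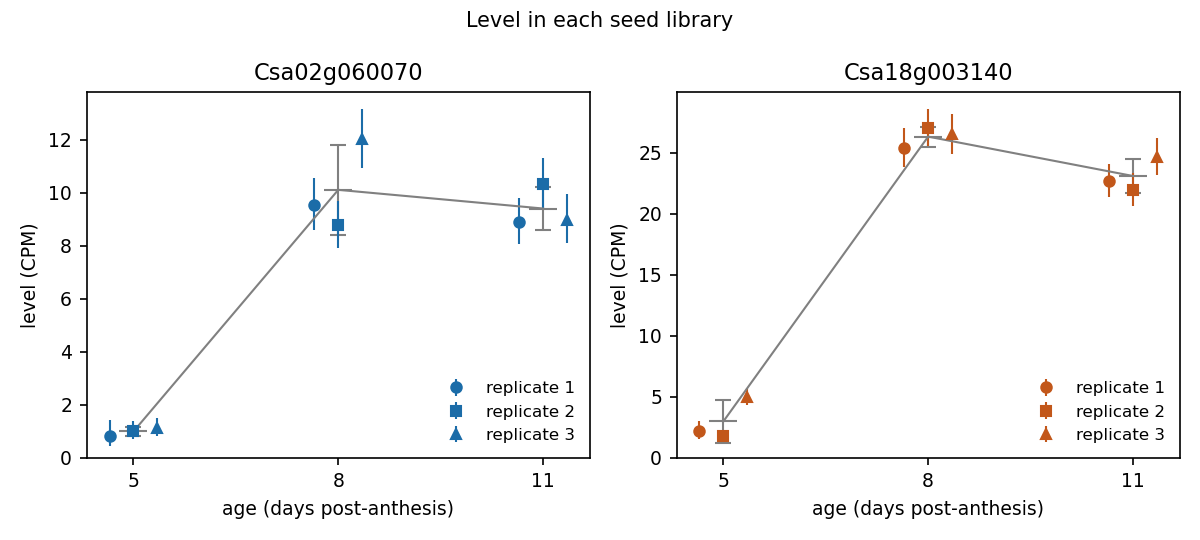
Level in CPM (y axis) of Csa02g060070 and Csa18g003140 against age in DPA (x axis). Each coloured point is a library with its 95% exact Poisson interval, and grey bars give the mean and SD of 3 replicates. The 5 DPA libraries lie at 0.830 to 1.13 CPM and 1.78 to 4.99 CPM, and every later library of the same gene lies above them.

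The spread among replicates differed between the genes and ages. For Csa18g003140 the coefficient of variation at 8 DPA was 3.14%, close to the 3.06% that counting error alone gives at its mean count, and at 5 DPA it was 58.7% against 9.62%. For Csa02g060070 it was 15.4% at 5 DPA against 17.1% from counting alone, and 16.7% at 8 DPA against 4.96%, where replicate 3 was the high library. The paired sequencing runs of a replicate gave like values: 8 of 8 pairs for Csa18g003140 and 7 of 8 for Csa02g060070 differed by no more than the 95% exact binomial interval of their counts, the exception being 11 DPA replicate 2 with 11.6 CPM in the first run and 9.34 CPM in the other. The high 5 DPA value of Csa18g003140 appeared in both runs of replicate 3, at 5.21 and 4.82 CPM.

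That library was also the highest at 5 DPA more often among genes that rose, though the median gene differed little there. It also entered the fit that called those genes. Among the 11378 genes that rose from 5 to 8 DPA, 45.0% had their highest 5 DPA level in replicate 3, against 24.8% in replicate 1 and 30.1% in replicate 2; over all genes tested the share for replicate 3 was 34.7%. In replicate 3, Csa18g003140 was 2.56 times and Csa02g060070 1.24 times the mean of the other 5 DPA libraries, while the median gene that rose was at 1.05 times. A larger ratio than that of Csa18g003140 was found in 3.12% of the genes that rose, and than that of Csa02g060070 in 20.9%. The part of this library's difference in the size of the rise was not tested beyond leaving it out.

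Read per length, the genes stood at nearly the same level. Per 1000 bases of deposited gene length, the values at 5, 8 and 11 DPA were 0.454 CPM ± 0.0699, 4.62 CPM ± 0.773 and 4.30 CPM ± 0.363 for Csa02g060070. For Csa18g003140 they were 0.542 CPM ± 0.318, 4.79 CPM ± 0.150 and 4.20 CPM ± 0.257 (SD over 3 replicates). The ratio of Csa18g003140 to Csa02g060070 per length was 1.16 ± 0.538, 1.06 ± 0.174 and 0.985 ± 0.126, so at each age it differed from 1 by less than the replicate SD. Single libraries ran from 0.697 in 5 DPA replicate 2 to 1.75 in 5 DPA replicate 3. The sources used here do not give whether the deposited length counts introns, so the per-length comparison holds only for that length.

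**Figure D2:**
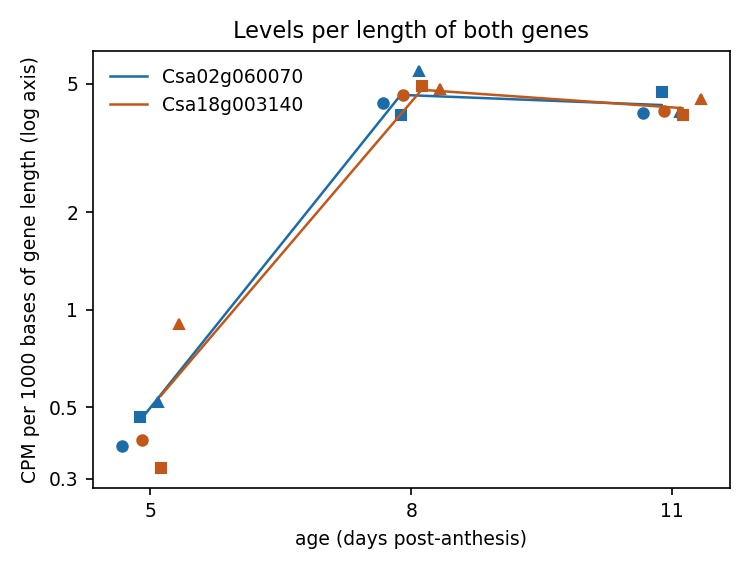
CPM per 1000 bases of deposited gene length (y axis, log scale) against age in DPA (x axis); circles, squares and triangles are replicates 1, 2 and 3, lines join the means, and points are shifted sideways for legibility. The lines of the genes lie together, at 4.62 and 4.79 at 8 DPA, and 5 DPA replicate 3 of Csa18g003140 is the point that stands off.

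On that scale the factors passed from the lower to the upper part of the genes with any count. At 5 DPA, 31.2% of 76498 genes with a count had a lower level per length than Csa02g060070, and 33.4% a lower one than Csa18g003140. At 8 DPA the shares were 74.9% and 75.7%, and at 11 DPA 73.6% and 73.1%. Among the 22 assayed factors, ordered from the highest level per length, Csa18g003140 and Csa02g060070 stood in places 8 and 9 at 5 DPA, 5 and 6 at 8 DPA, and 12 and 11 at 11 DPA. At 8 DPA the factor above them was Csa11g015700 with 5.86 CPM ± 0.854 per 1000 bases and the one below was Csa11g072230 with 3.96 CPM ± 0.478, both within the sum of the SDs of Csa02g060070 and both just beyond it for Csa18g003140. At 11 DPA the one above was Csa02g073390 with 5.45 CPM ± 3.18, within its SD of both, and the one below was Csa10g008930 with 2.02 CPM ± 0.409, a mean under every library of both.

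Most of the other assayed factors rose over the whole span, and 11 of those tested rose between 8 and 11 DPA. The labels name 20 others, of which 18 passed the filter and Csa01g013850 and Csa09g088620 had no count. The filter used all 3 ages together, so a factor could enter the first step through its level at 11 DPA. With only 5 and 8 DPA in the fit, 14 of the others passed, and how many of these rose was not counted. From 5 to 8 DPA 10 of the 18 rose and 0 fell by edgeR's quasi-likelihood test (Benjamini-Hochberg adjusted p under 0.05 over all genes; by DESeq2, and by edgeR without adjustment, 0 fell too), where 18.1% of all 63017 genes tested rose. From 8 to 11 DPA 11 rose and 0 fell by edgeR (0 also unadjusted and by DESeq2), against 20.8% of all genes. From 5 to 11 DPA 16 rose, against 29.8%. The smallest of these rises were 0.28 for Csa11g037200 and 0.33 for Csa04g050690 on the log2 scale. The former lost its call in 4 of 15 alternatives. In the first step, Csa04g050690 lost its call in 8 of 16 alternatives and Csa06g051300 in 8 of 15. Over the 18 factors the median log2 change was 1.07 in the first step and 1.30 in the second, beside -0.01 and 0.00 over all genes tested. The series title names co-expression, and if that picked the factors on these very samples, a shared direction among them carries no independent weight.

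In the first step, 3 other factors had a larger log2 change than 3.25 (SE 0.16) for Csa02g060070 and 3.03 (SE 0.30) for Csa18g003140. Csa02g073390 rose by 6.16, Csa04g012470 by 4.99 and Csa04g023980 by 3.58 on the log2 scale (edgeR adjusted p = 0.00107, 1.8e-05 and 0.0119). Their 5 DPA means were 0.00755, 0.236 and 0.0298 CPM, and their 8 DPA means 0.978, 8.33 and 0.295 CPM. At 5 DPA, 3 counts correspond to at least 0.0680 CPM. Csa02g073390 and Csa04g023980 started below that, as did Csa06g051300 at 0.0666 CPM, so the sizes of their rises are uncertain. Csa02g073390, Csa04g012470 and Csa04g023980 also rose in the second step, by 2.99, 2.75 and 2.97 (edgeR adjusted p = 0.000568, 6.06e-05 and 0.00142). Without 5 DPA replicate 3 the first-step values became 8.21, 5.596 and 2.84, and the call of Csa04g023980 was lost (adjusted p = 0.0522); that factor was at 4.25 without 5 DPA replicate 1, and Csa02g073390 at 5.58 without 5 DPA replicate 2. Which factors exceeded Csa02g060070 and Csa18g003140 depended on 5 DPA replicate 3. Without it these were at 3.37 and 3.73, above Csa04g023980, while Csa06g051300, at 2.28 with all libraries (edgeR adjusted p = 0.0472), was at 4.03 (edgeR adjusted p = 0.0268), above both. Without 8 DPA replicate 3, 2 of the 18 other factors were above Csa02g060070. With only 5 and 8 DPA in the fit, 14 others passed the filter, and 2 of them were above each of Csa02g060070 and Csa18g003140. Without 11 DPA replicate 1 the second step of Csa02g073390 was 2.36. In the second step the smallest log2 change of the 18 was 0.06 (SE 0.09) for Csa11g037200, which was not called (edgeR adjusted p = 0.588). Csa02g060070 and Csa18g003140, chosen for a flat second step, were below it with all libraries, but Csa02g060070 was above 1 of the other factors without 8 DPA replicate 3 (0.11), without 11 DPA replicate 3 (0.02) and with the first run alone (0.12). All comparisons between these steps share the 8 DPA libraries.

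**Figure D3:**
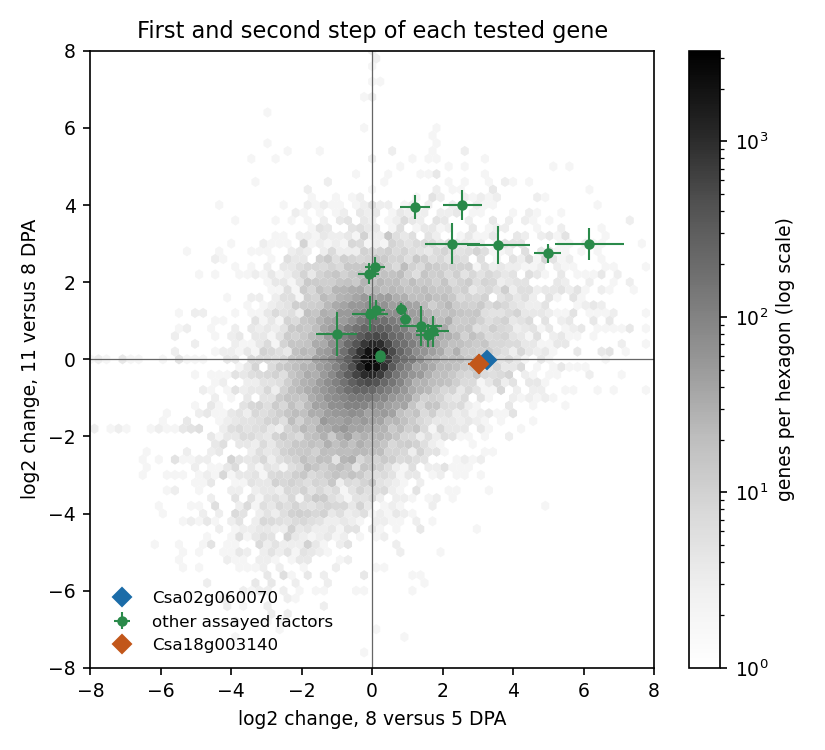
Log2 change from 8 to 11 DPA (y axis) against that from 5 to 8 DPA (x axis) for the genes tested, as hexagons shaded by number of genes on a log scale; diamonds are Csa02g060070 and Csa18g003140, green points the 18 other factors tested, and bars are SEs from the edgeR fit. The diamonds lie near 3 on the x axis and near 0 on the y axis.

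Genes called with this kind of course were a minority of those that rose. Of the 11378 genes that rose from 5 to 8 DPA, 4367 (38.4%) rose again by 11 DPA, 1593 fell and 5418 (47.6%) were not called in the second step. In 2348 of the last group (20.6% of the genes that rose) the second step was also called below the first, which is 3.73% of all genes tested and includes Csa02g060070 and Csa18g003140, as the rule of choice implies. The count was 1537 without 8 DPA replicate 3. Both counts rest on calls. A second step not called need not be flat, and genes whose difference between steps was not called were left out. The median first-step log2 change of the 2348 genes was 1.36 (quartiles 0.71 and 2.54), and 444 of them (18.9%) changed by at least as much as Csa18g003140. Among all genes tested, 97.8% had a smaller first-step change than Csa02g060070 and 97.5% a smaller one than Csa18g003140.

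The profiles of the genes followed each other closely and were followed by many other genes. Likeness was measured as the root mean square difference of log2 CPM, centred on each gene's mean, over the 9 libraries, so that 0 is an identical course. It was 0.35 between Csa02g060070 and Csa18g003140, and 0.05 when age means replaced single libraries. Both were chosen for the same course, so a small difference between them was built into the choice and is only described. In the order of the 52247 genes compared (mean at or above 1 CPM), Csa18g003140 was at place 138 for Csa02g060070, and Csa02g060070 at place 57 for Csa18g003140; the median gene differed from them by 1.55 and 1.56. Within 0.5 lay 425 genes for Csa02g060070 and 238 for Csa18g003140, with 218 in both lists, which is 51.3% of the former and 91.6% of the latter. The nearest of the other 14 assayed factors compared was Csa17g034220 for both, at 0.70, and the farthest Csa04g012470, at 1.83 and 1.87.

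The gene most like Csa02g060070 was Csa10g040600, at a difference of 0.13. Its mean was 1.73 CPM ± 0.395, then 17.2 CPM ± 1.65 and then 18.2 CPM ± 0.411 (SD over 3 replicates), with a first-step log2 change of 3.21 (SE 0.14). Next was Csa03g033940, at 0.15, a more abundant gene with 14.4 CPM ± 2.26, 139 CPM ± 24.3 and 145 CPM ± 29.2. Like Csa02g060070, both had their highest 8 DPA value in replicate 3, at 19.1 and 167 CPM. The closest mirror images, genes that fell by as much and then held, were Csa17g088740 at 0.22 and Csa07g013320 at 0.23. Csa17g088740 went from 22.1 CPM ± 3.67 to 2.03 CPM ± 0.466 and 1.91 CPM ± 0.568, and Csa07g013320 from 3.46 CPM ± 0.227 to 0.367 CPM ± 0.137 and 0.361 CPM ± 0.0790.

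The gene most like Csa18g003140 was Csa11g065050, at 0.12. It had 3.13 CPM ± 1.35, 28.1 CPM ± 1.22 and 25.9 CPM ± 0.485 at 5, 8 and 11 DPA (SD, n = 3), close to Csa18g003140 in CPM as well as in course. Next was Csa14g042550, at 0.15, with 3.33 CPM ± 1.59, 29.2 CPM ± 1.78 and 24.6 CPM ± 1.76. Both shared the high 5 DPA replicate 3, with 4.69 and 5.14 CPM there. The closest mirror images were farther off, Csa17g001600 at 0.30 and Csa12g009930 at 0.33. Csa17g001600 went from 5.25 CPM ± 1.82 to 0.637 CPM ± 0.169 and 0.642 CPM ± 0.0825, and Csa12g009930 from 2.56 CPM ± 0.958 to 0.265 CPM ± 0.0175 and 0.230 CPM ± 0.0222. These genes were selected for their likeness, so their course is a description. The camelina genome is hexaploid, and the sources used here do not say how reads matching several copies were counted, so counts of near-identical copies, the factors' own included, are uncertain.

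**Figure D4:**
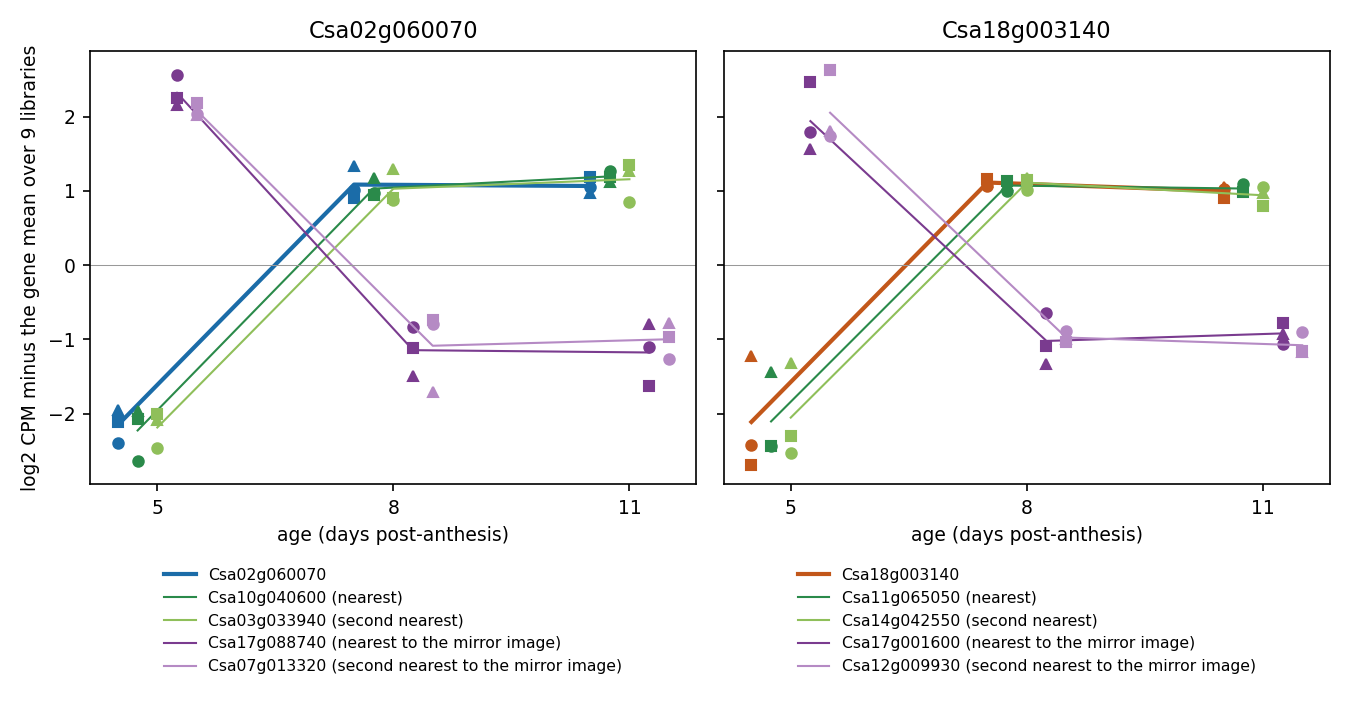
Log2 CPM minus each gene's mean over 9 libraries (y axis) against age in DPA (x axis) for each factor, the pair of genes most like it and the pair nearest to its mirror image. Circles, squares and triangles are replicates 1, 2 and 3, lines join age means, and genes are shifted sideways for legibility; in the right panel the triangles of 5 DPA replicate 3 lie above the other 5 DPA points for Csa18g003140 and both genes most like it.

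The 100 nearest genes of each factor shared 50 members and covered a wide range of abundance. For Csa02g060070 they had a median of 1.91, 17.3 and 18.7 CPM at 5, 8 and 11 DPA, and for Csa18g003140 of 2.11, 16.7 and 15.4 CPM. Their first-step log2 changes ran from 2.53 to 4.18 and from 2.31 to 4.18, and their second-step changes from -0.74 to 0.62 and from -0.87 to 0.74. At 8 DPA, 69 of the 100 had a higher level per length than Csa02g060070, and 68 of the 100 a higher one than Csa18g003140. The single assayed factor in either list was Csa02g060070, among the nearest of Csa18g003140.

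Genes next to the factors in ID number had smaller first-step rises, the largest being 1.66 near Csa02g060070 and 0.27, not called, near Csa18g003140 on the log2 scale. Of the 5 IDs on either side of Csa02g060070, 8 passed the filter; from 5 to 8 DPA 3 of these rose and 1 fell by edgeR, beside 18.1% and 17.5% of all genes, and from 8 to 11 DPA 1 rose and 3 fell, beside 20.8% and 19.7%. Of the 10 IDs around Csa18g003140, 6 passed the filter, and 0 rose in either step by edgeR (unadjusted, 0 in the first and 1 in the second; by DESeq2, 0 in each), while 1 fell in the first and 2 in the second. Calls near the threshold were not firm: that of Csa02g060090, 1 of the 3 that rose, was lost in 9 of 16 alternatives, and that of Csa18g003150, the 1 that fell in the first step (log2 change -1.06, SE 0.30, edgeR adjusted p = 0.0208), in 4 of 16. Csa02g060020 rose by 0.59 (SE 0.09, edgeR adjusted p = 0.000988) and was not called in the second step (0.02, SE 0.09, edgeR adjusted p = 0.890). The ID that follows Csa02g060070, Csa02g060080, is on the plus strand and was picked out after its values were seen. It had 1.90 CPM ± 0.426, 6.38 CPM ± 2.03 and 14.4 CPM ± 0.463 at 5, 8 and 11 DPA (SD, n = 3). It rose in both steps, with log2 changes of 1.66 (SE 0.23) and 1.26 (SE 0.21) and edgeR adjusted p of 0.000536 and 0.00133.

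The binding lists of the factors were of like length and had 31 sites in common, a number not set against chance. The authors' lists held 1185 peaks for Csa02g060070 and 1089 for Csa18g003140, each over 20 chromosomes, with a signal of 38 to 165.9 (median 43) and of 20 to 462.8 (median 32) in the authors' unit, which is not stated. Summits of both lists lay within 100 bp of each other at 31 sites, 2.62% of the list of Csa02g060070 and 2.85% of that of Csa18g003140. The shared site with the highest signal in the list of Csa02g060070 was chr11:29325455-29325655, with 165.9 there and 59.3 in the list of Csa18g003140. The sources used here give no genome build. Most shared sites were not particular to this pair. All but those at places 8 and 31 by that signal also had a summit in a further list. Counting both factors, the named site had a summit in 5 lists, and the most at a shared site was 10. Csa02g060070 shared most summits with Csa06g051300 (18.3% of its list) and Csa02g073390 (18.1%), whose lists are long at 47458 and 129638 peaks. Csa18g003140 shared most with Csa08g011090 (19.1% of its list) and Csa13g021450 (15.0%), from lists of 5259 and 11761 peaks. The shorter list of Csa10g008930, with 1778 peaks, shared 14.0% of the list of Csa18g003140 and 2.95% of that of Csa02g060070. In the list of Csa02g060070 387 summits (32.7%) had no summit of another available list within 100 bp, and in that of Csa18g003140 350 (32.1%). These comparisons used 20 lists, with none for Csa17g034220 and Csa19g036630. No test was made, as each of these factors with peaks has 1 list with no replicate. The depth behind a list, which affects its length, is also unknown.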

How the data were processed

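The authors deposited whole-number counts per gene with a column per sequencing run, and a gene length. Per the submitters' processing notes, HISAT2 2.0.4, Bowtie2 2.3.4.1, Trimmomatic, FastQC and bcl2fastq 2.20.0 are named with no role; the sources used here do not give the counting tool, its use of strand, the annotation or the build. Peak lists are named as events of the GEM caller by the authors and carry a signal per peak and −log10 of q (at least 2 in both lists), as the authors give them.

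The 2 runs of a replicate were summed, without the duplicated run. CPM are counts per 1000000 of a library's total, and 3 counts correspond to 0.0640 to 0.192 CPM. Intervals cover counting error only. Genes were fitted with edgeR 4.0.16 (R 4.3.3) after filterByExpr and TMM scaling, with glmQLFit and then glmQLFTest on 63017 genes, age as the single factor and the 9 libraries in 1 model. SEs are the log2 change over the root of the F statistic. Likeness used TMM log2 CPM with a prior count of 2. The code was tested on simulated counts. Named genes are the 2 most like each factor and the 2 most like its mirror image. The genes, lists and tests were chosen with earlier results of these data known. Alternatives were DESeq2 1.42.0 (test, and size factors in edgeR), no filter, only the ages compared, a replicate block, each replicate left out, the first run alone, runs summed as deposited, and for likeness Pearson's r, age means, a minimum of 5 CPM and a prior count of 5. Alternatives for the shared summits were added after seeing the data.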

Additional observations from a re-analysis of the deposited data

How the results depend on the processing

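Leaving out each replicate, the first step of Csa02g060070 ran from 3.12 to 3.37 and that of Csa18g003140 from 2.72 to 3.73, the highest without 5 DPA replicate 3; the second ran from -0.12 to 0.11 and from -0.14 to -0.08. The sign of the second step of Csa02g060070 is thus not fixed, and it was 0.12 with the first run alone. The number of other factors that rose was 7 to 11 from 5 to 8 DPA, 11 to 12 from 8 to 11 DPA and 15 to 17 from 5 to 11 DPA with a replicate left out. The count of 2348 genes with an early rise that levels off ran from 1537 to 2601 with a replicate left out, the lowest without 8 DPA replicate 3. Csa02g060070 and Csa18g003140 were among them under all 15 alternatives for this count. Both were chosen for this course, so their place there carries no independent weight.

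Lists of the most like genes depended on the measure. Of the 100 nearest genes of Csa02g060070, 23 were among the 100 nearest by Pearson's r and 56 by age means; for Csa18g003140 these were 27 and 42. With a replicate left out, 73 to 92 and 65 to 93 were kept, the lowest for Csa18g003140 without 5 DPA replicate 2. The cause was not tested. By Pearson's r, age means, a prior count of 5 and the first run alone, Csa10g040600 took places 13, 25, 2 and 2 for Csa02g060070 and Csa03g033940 places 35, 16, 8 and 25. For Csa18g003140, Csa11g065050 took places 3, 2, 1 and 1 and Csa14g042550 places 8, 7, 2 and 4.

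The replicate number as a block gave 3.26 and 3.12 for the first steps, 8 other factors that rose from 5 to 8 DPA and 2111 genes with an early rise. Deviations of same-numbered libraries correlated by -0.07 to 0.18, the highest for replicate 3 between 5 and 8 DPA. Differently numbered libraries were not compared, so whether the numbers pair the samples was not settled. The summits shared by both factors numbered 28 within 50 bp, 33 within 200 bp and 25 in the upper 50% of each list. The 13 counts of Csa02g060070 in 5 DPA replicate 1 limit its lowest level to 0.442 to 1.42 CPM.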
